A study of Mus musculus with 3 samples.

Results

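Clec4d, Clec4e, Clec4n, Clec4a3, Clec4b1, Clec7a and Cd209a encode C-type lectin receptors of myeloid cells. They were taken by name as 7 genes of interest, and 6 of them had values among the 14148 genes of each count table. Clec7a was not analysed here. Their transcripts were followed in sorted CD45+ immune cells of the small-intestinal muscularis externa, the muscle layer that holds the enteric neurons, from wild-type C57BL/6J mice aged 12 weeks. One library each was made from naïve mice and from mice 24 h or 72 h after intestinal manipulation, a surgical model in which the exposed small intestine is mechanically handled. Each library pooled the cells of several mice, so there was 1 sample per time point and differences between time points have no replicate check. No sham-operated mice were among them, so manipulation and surgery cannot be told apart.

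C-type lectin receptors bind carbohydrates and lipids on microbes and on damaged cells. Clec4d (MCL), Clec4e (Mincle) and Clec4n (Dectin-2) couple to the FcRγ chain encoded by Fcer1g, which passes the signal to the kinase Syk and the adaptor Card9 and so to cytokine genes. Clec4b1 (DCAR) also pairs with FcRγ, Clec4a3 belongs to the DCIR group of receptors, and Cd209a is a mouse homologue of the dendritic cell lectin DC-SIGN.

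Clec4a3, Clec4b1, Clec4n, Clec4d and Clec4e lie in 1 cluster on chromosome 6 of GRCm38, which also holds Clec4a1, Clec4a2 and Clec4b2 (GENCODE M21). Clec4a3 spans chr6:122952515-122969875, Clec4b1 chr6:123049962-123071555, Clec4n chr6:123229843-123247021 and Clec4d chr6:123262111-123275265, each on the plus strand. Clec4e lies next to Clec4d at chr6:123281789-123289870 on the minus strand, so the 3′ ends of this pair face each other. Cd209a lies at chr8:3743397-3748984 on the minus strand. Of the 50-base words in the protein-coding transcripts of Clec4b1, 8.68% (68 of 783) also occurred in transcripts of Clec4a2, and 0.83% of those of Clec4n in Gm44147. Reads from these stretches cannot be assigned to 1 gene. The other 4 members shared no such word with any other gene.

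Promoters are shown for the neighbours Clec4d and Clec4e, whose levels moved together across most cell classes. Those of Clec4b1 and Cd209a, which were highest in dendritic cell-like cells, are also shown. Each is the 250 bases before a RefSeq start (GRCm38.p6), read 5′ to 3′ on the gene's strand, and capitals mark GAGGAA or its reverse complement, which hold the GGAA core bound by ETS factors such as PU.1:
Clec4d, chr6:123261857-123262106: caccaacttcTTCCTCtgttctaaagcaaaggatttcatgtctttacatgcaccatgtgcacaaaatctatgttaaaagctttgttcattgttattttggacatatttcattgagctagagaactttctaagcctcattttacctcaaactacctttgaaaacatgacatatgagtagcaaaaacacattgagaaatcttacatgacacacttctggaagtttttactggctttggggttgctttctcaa
Clec4e, chr6:123289872-123290121: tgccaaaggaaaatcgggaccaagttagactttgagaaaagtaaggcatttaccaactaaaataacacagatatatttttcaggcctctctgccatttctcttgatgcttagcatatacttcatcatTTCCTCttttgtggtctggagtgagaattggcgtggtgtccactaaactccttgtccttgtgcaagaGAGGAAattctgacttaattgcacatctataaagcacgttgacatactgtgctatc
Clec4b1, chr6:123049712-123049961: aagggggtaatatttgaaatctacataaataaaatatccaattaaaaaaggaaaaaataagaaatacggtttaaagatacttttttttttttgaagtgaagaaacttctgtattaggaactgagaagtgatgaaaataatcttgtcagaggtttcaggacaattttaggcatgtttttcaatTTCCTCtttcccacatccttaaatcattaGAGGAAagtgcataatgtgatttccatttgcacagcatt
Cd209a, chr8:3748985-3749234: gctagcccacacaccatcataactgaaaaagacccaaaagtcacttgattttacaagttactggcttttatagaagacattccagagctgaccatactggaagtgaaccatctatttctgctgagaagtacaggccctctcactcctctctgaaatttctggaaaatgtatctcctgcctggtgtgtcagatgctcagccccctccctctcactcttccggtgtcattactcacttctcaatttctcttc

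GAGGAA, searched on both strands and chosen after the sequences had been read, occurred 1 time before Clec4d, 2 times before Clec4e and 2 times before Clec4b1. It was not in the window of Cd209a. Of the 2 starts listed for Clec4a3, 1 window held it 1 time and the other 0 times. Among all 32851 promoters of this table, 23.3% held GAGGAA in the same 250 bases. The letters TTNCNNAA, close to a C/EBP site, occurred 3 times before Clec4d, 2 times before Clec4e and 1 time before Cd209a, against 36.8% of all promoters. No TTNCNNAA match overlapped a GAGGAA match. TGANTCA, an AP-1 site, was in none of the 6 windows and in 6.7% of all promoters. In all, 5 of the 6 members matched this table, and Clec4n had no entry.

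The 3 libraries held 652 naïve cells, 2211 cells at 24 h and 1239 cells at 72 h, with medians of 2134.5, 4669 and 3295 UMIs per cell. Any pair of libraries shared 1 cell barcode. Clustering without the members gave 16 clusters, named from marker genes: monocyte/Mφ-like (138 naïve, 1548 at 24 h and 578 at 72 h), neutrophil-like (12, 411 and 110), dendritic cell-like (30, 120 and 163), T cell-like (188, 71 and 135) and B cell-like (269, 34 and 49). A further cluster of 246 cells (15, 27 and 204) was led by Gm12840, Ptgs2, Siglecf and Mmp9 and was given no class name. Its neutrophil markers summed to 37720 CPM at 72 h against 102700 CPM in neutrophil-like cells, with Retnlg at 28.5 CPM at 72 h and 0 in the other libraries. Of the eosinophil markers measured it held Siglecf (389.5 CPM at 72 h), whereas Ccr3, Prg2 and Alox15 were at 0. It is called the Siglecf Ptgs2 cluster below. Levels are given in CPM, a gene's UMIs scaled by all UMIs of the group, with 95% intervals that cover counting error only.

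Clec4d and Clec4e were highest in neutrophil-like cells, Clec4n in these and in the Siglecf Ptgs2 cluster, Clec4a3 in monocyte/Mφ-like cells, and Cd209a and Clec4b1 in dendritic cell-like cells. At 24 h, neutrophil-like cells exceeded monocyte/Mφ-like cells 13.9-fold for Clec4d (95% interval 12.6 to 15.4), 12.4-fold for Clec4e (11.3 to 13.6) and 8.92-fold for Clec4n (8.19 to 9.71). Clec4a3 went the other way, at 0.213 of the monocyte/Mφ level (0.144 to 0.305). Of 4 members at 20 CPM or more in either class, 3 were at least 2-fold higher and 1 at least 2-fold lower, against 18.2% and 37.4% of all 5346 genes. The median ratio of all these genes was 0.705. Neutrophil-like cells were shallow, with a median of 890 UMIs against 5950 in monocyte/Mφ-like cells. CPM is a share of all UMIs, so these ratios are not ratios of UMIs per cell. The 411 neutrophil-like cells held 649 UMIs of Clec4d, 726 of Clec4e and 765 of Clec4n. The 1548 monocyte/Mφ-like cells held 1041, 1309 and 1912.

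**Figure D1:**
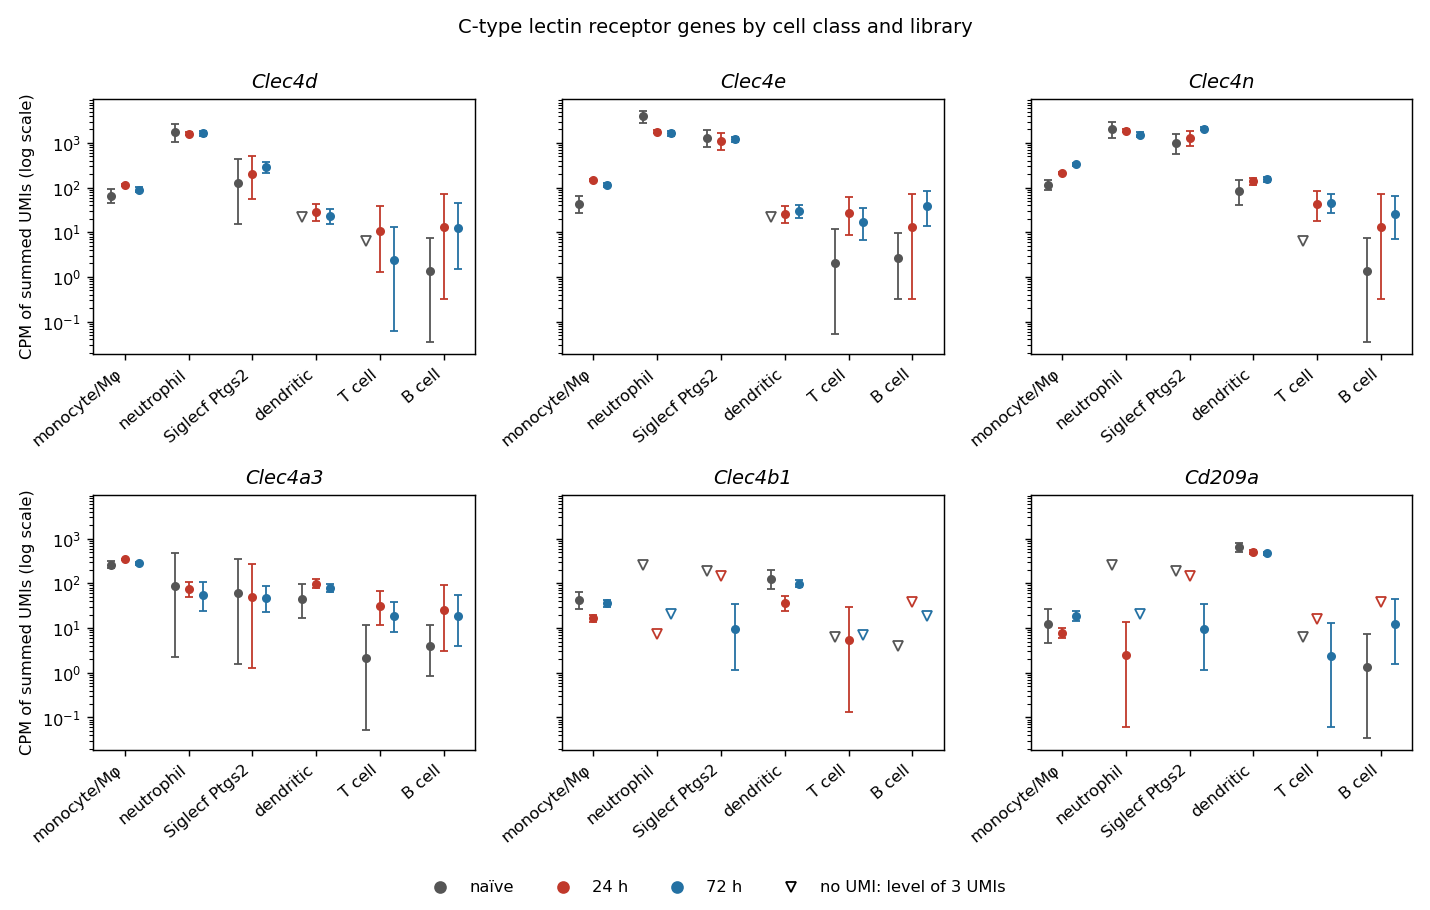
Level of each gene in 6 cell classes (x axis) as CPM of summed UMIs on a log axis, for the naïve, 24 h and 72 h libraries. Points are 1 pooled library each, bars are 95% Poisson intervals and open triangles mark groups with no UMI, at the level 3 UMIs would give. Clec4d and Clec4e peak in neutrophil-like cells, Clec4n there or, at 72 h, in the Siglecf Ptgs2 cluster, Clec4a3 in monocyte/Mφ-like cells and Cd209a in dendritic cell-like cells.

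Clec4d, a receptor for mycobacterial glycolipids, was at 1738 CPM in the 12 naïve neutrophil-like cells (1062 to 2684), 1602 at 24 h (1481 to 1730) and 1642 at 72 h (1440 to 1865). The naïve value rests on 20 UMIs and is not compared. The 72 h level was 1.03 times that at 24 h (0.880 to 1.19). In the Siglecf Ptgs2 cluster it was at 124 CPM in naïve mice (15.02 to 448), 199 at 24 h (54.3 to 510) and 285 at 72 h (218 to 367). Every one of these lay below the neutrophil-like level of the same library, and at 72 h the ratio was 0.174 (0.129 to 0.231). This was the only 1 of 4 members at least 2-fold lower in that cluster, against 12.9% of all 5454 genes. None was at least 2-fold higher, against 37.3% of all genes, and the median ratio of all genes was 1.49.

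Clec4e, which senses mycobacterial cord factor and a protein of dying cells, was at 3911 CPM in naïve neutrophil-like cells (2852 to 5233), 1792 at 24 h (1664 to 1927) and 1628 at 72 h (1427 to 1850). The intervals at 24 h and 72 h overlapped. The naïve value is not compared, since 31 of its 45 UMIs came from 3 cells. In the Siglecf Ptgs2 cluster Clec4e was at 1302 CPM in naïve mice (806 to 1990), 1096 at 24 h (687 to 1659) and 1202 at 72 h (1058 to 1359). The intervals at 24 h and 72 h overlapped, and the 72 h level was 0.738 of that in neutrophil-like cells (0.616 to 0.885).

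Clec4n, the receptor for fungal mannans, was at 1999 CPM in naïve neutrophil-like cells (1267 to 2999), 1888 at 24 h (1756 to 2026) and 1532 at 72 h (1337 to 1747). In the Siglecf Ptgs2 cluster it was at 992 CPM in naïve mice (567 to 1611), 1295 at 24 h (846 to 1897) and 2099 at 72 h (1908 to 2304). The cluster stood at 0.686 of the neutrophil-like level at 24 h (0.445 to 1.013, an interval that holds 1) and exceeded it 1.37-fold at 72 h (1.16 to 1.62). By 3′ tag counts, which do not scale with transcript length, Clec4d was the lowest of these 3 genes in the cluster in every library.

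Neutrophil-like cells formed 2 clusters that differed in Clec4d and Clec4e. At 24 h, the 48 cells of a cluster led by Acod1, Il1f9, Asprv1 and Hcar2 held Clec4d at 3249 CPM (2840 to 3700), against 1258 CPM (1141 to 1384) in the 363 cells led by Retnlg, Gm5483, S100a9 and Cxcr2. Clec4e was at 3893 CPM (3444 to 4384) and 1354 CPM (1232 to 1484). The ratios were 2.58 (2.19 to 3.04) and 2.88 (2.47 to 3.35). For Clec4n the levels of 1918 and 1881 CPM gave a ratio of 1.02 (0.840 to 1.23), so a difference of over 1.23-fold lay outside the interval. At 72 h, 17 Acod1-led cells held Clec4n at 3005 CPM (2397 to 3720) and 93 Retnlg-led cells at 1180 CPM (991 to 1394).

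**Figure D2:**
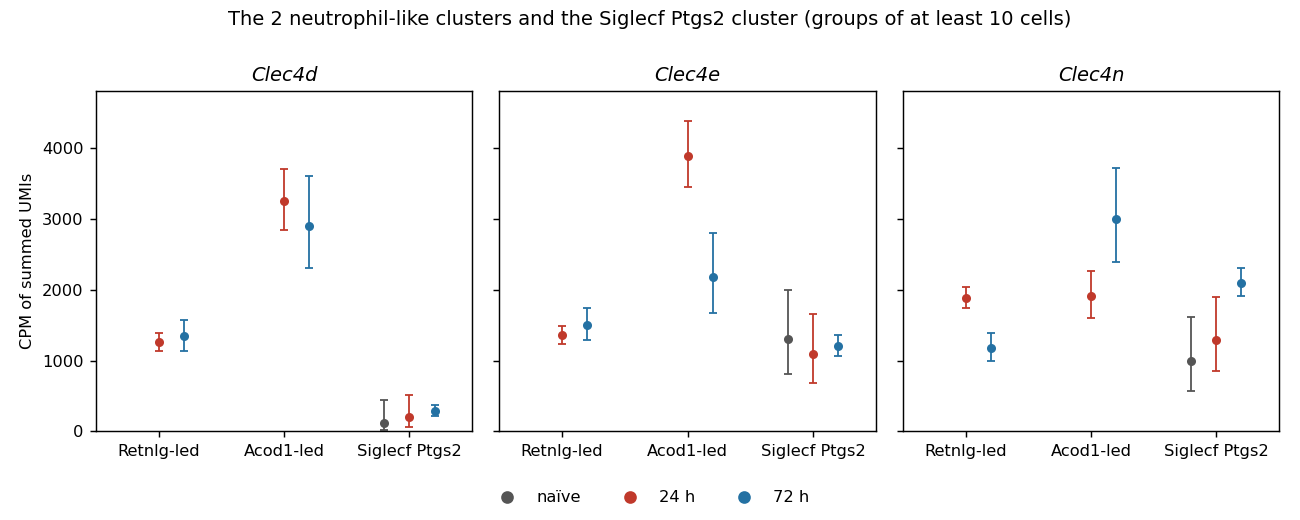
CPM of summed UMIs (y axis, from 0) of Clec4d, Clec4e and Clec4n in the Retnlg-led and Acod1-led neutrophil-like clusters and the Siglecf Ptgs2 cluster, in groups of at least 10 cells. Bars are 95% Poisson intervals; Clec4d stays under 300 CPM in the Siglecf Ptgs2 cluster while Clec4e and Clec4n are near or above 1000 CPM.

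The shares of cells with a UMI depend on depth. At 24 h, 63.5% of neutrophil-like cells held a UMI of Clec4d, 61.3% of Clec4e and 51.8% of Clec4n, against 37.5%, 38.0% and 49.0% of the deeper monocyte/Mφ-like cells. With each cell thinned to 500 UMIs, the shares were 47.0%, 48.2% and 39.7% against 5.69%, 7.49% and 8.40%. In T cell-like cells of that library, which should lack these receptors and had a median of 2400 UMIs, 2.82%, 7.04% and 11.3% held a UMI. Cells with both Clec4d and Clec4e made up 41.6% of neutrophil-like cells at 24 h, next to 38.9% given by the product of the 2 shares. In the Siglecf Ptgs2 cluster at 72 h, 22.55% of cells held Clec4d, 52.0% Clec4e and 72.55% Clec4n.

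Clec4a3, of the DCIR group, was at 265 CPM in naïve monocyte/Mφ-like cells (221 to 315), 347 at 24 h (335 to 359) and 281 at 72 h (262 to 300). Neutrophil-like cells and the Siglecf Ptgs2 cluster stayed between 47.5 and 86.9 CPM. At 72 h both lay below the monocyte/Mφ interval, whereas the naïve values of both rest on 1 UMI each. The dendritic cell-like levels of 45.0, 99.4 and 79.7 CPM also lay below it. Of all Clec4a3 UMIs, monocyte/Mφ-like cells held 91.5% in naïve mice, 96.3% at 24 h and 87.5% at 72 h.

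Clec4b1 and Cd209a followed dendritic cell-like cells. Cd209a was at 645 CPM there in naïve mice (516 to 797), 500 at 24 h (452 to 551) and 473 at 72 h (435 to 513), and between 7.86 and 18.65 CPM in monocyte/Mφ-like cells. Clec4b1 was at 128 CPM in naïve dendritic cell-like cells (74.3 to 204), 35.6 at 24 h (23.8 to 51.1) and 99.7 at 72 h (82.6 to 119). The 24 h interval lay below both others, and the ratios were 0.279 (0.148 to 0.541) for 24 h over naïve and 2.80 (1.85 to 4.36) for 72 h over 24 h. Other genes of these cells moved the same way: in naïve, 24 h and 72 h cells the 6 markers of dividing cells summed to 1351, 217.3 and 924.4 CPM, the 14 of monocytes and Mφs to 13000, 5045 and 9474 CPM, and the 8 of T cells to 1073, 51.55 and 251.7 CPM. The 12 dendritic cell markers summed to 1005, 1540 and 1895 CPM. The part of these cells in the Clec4b1 values was not tested. No UMI of Clec4b1 was counted in 533 neutrophil-like cells, where 3 UMIs would give 5.34 CPM.

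At 72 h, dendritic cell-like cells exceeded monocyte/Mφ-like cells 25.3-fold for Cd209a (19.3 to 33.8) and 2.79-fold for Clec4b1 (2.14 to 3.65). Over the alternative settings these ran from 21.1 to 43.2 for Cd209a and from 1.48 to 7.09 for Clec4b1, whose 2-fold call was lost with fewer principal components and at the resolution of 1.2. Clec4d at 0.258 (0.169 to 0.382), Clec4e at 0.264 (0.182 to 0.373), Clec4n at 0.463 (0.394 to 0.542) and Clec4a3 at 0.284 (0.228 to 0.351) were lower there. These are 2 members at least 2-fold higher and 4 at least 2-fold lower, against 9.74% and 9.77% of all 5526 genes. No UMI of Clec4d or Clec4e was counted in the 30 naïve dendritic cell-like cells, where 3 UMIs would give 22.5 CPM. Cd209a was among the leading genes of the main dendritic cell-like cluster, which had been formed without it.

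The dendritic cell-like class held a main cluster and a smaller one. At 72 h, Cd209a was at 540 CPM (497 to 587) in its main cluster of 150 cells and at 6.55 CPM, from 1 UMI, in 13 cells led by Xcr1, Sept3, Clec9a and Snx22. A separate clustering of all cells at the finer resolution of 1.2 was not matched to this class. There, 58 cells led by Cd209a, Kmo, Ddr1 and Mgl2 held Cd209a at 1047 CPM at 72 h. In the same library, 84 cells of an unnamed cluster led by Ube2c, Retnla, Stmn1 and Birc5 held it at 193 CPM (158 to 233). There were 0 UMIs of Cd209a or Clec4b1 in 12 cells led by Fscn1, Ccl22, Ccr7 and Cacnb3. Clec4b1 was spread otherwise, at 92.8 CPM in the Cd209a-led cells (66.6 to 126) and 143 CPM in the Ube2c-led cells (113 to 179).

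**Figure D3:**
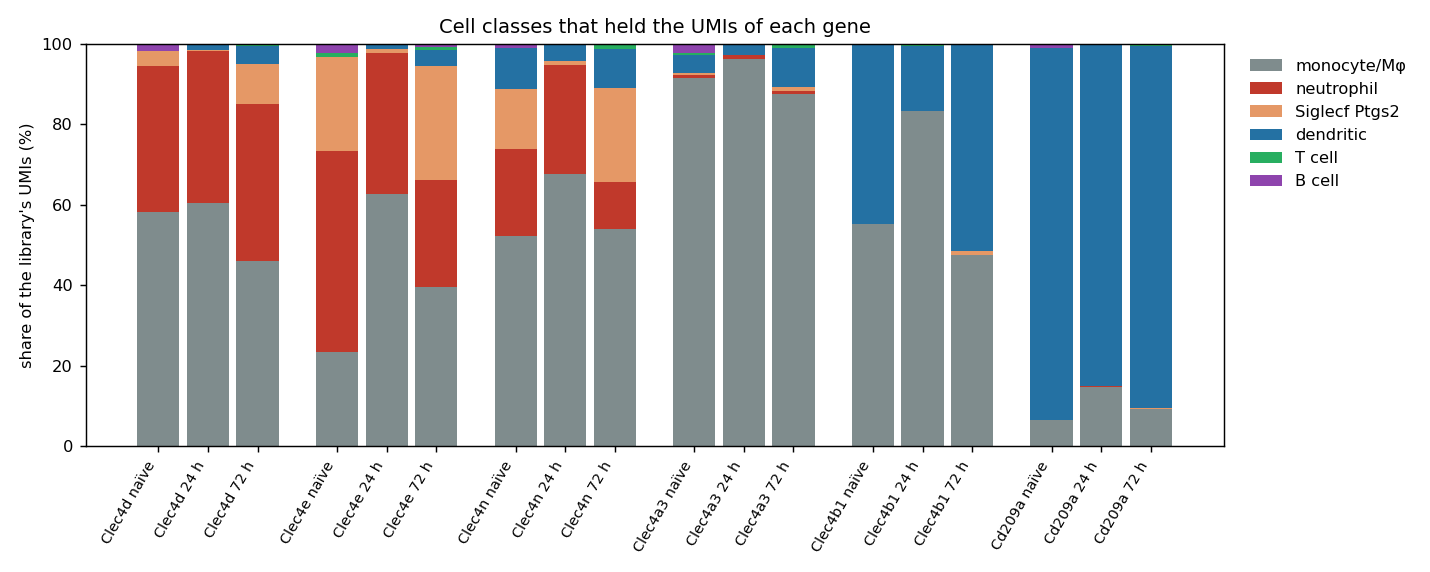
Share of each gene's UMIs (y axis, percent of all UMIs of that gene in a library) held by the 6 cell classes, for each gene and library. Neutrophil-like cells held 37.7% of Clec4d UMIs at 24 h, the Siglecf Ptgs2 cluster 28.4% of Clec4e UMIs at 72 h, and dendritic cell-like cells 84.97% to 92.5% of Cd209a UMIs.

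How much of each transcript pool a class held also followed its size. Neutrophil-like cells made up 18.6% of the cells at 24 h (17.0% to 20.3%) and held 37.7% of Clec4d, 34.8% of Clec4e and 27.1% of Clec4n UMIs. Monocyte/Mφ-like cells, 70.0% of the cells, held 60.5%, 62.8% and 67.7%. At 72 h the Siglecf Ptgs2 cluster was 16.5% of the cells and held 28.4% of Clec4e and 23.3% of Clec4n but 9.85% of Clec4d UMIs. Dendritic cell-like cells held 16.2% of Clec4b1 UMIs at 24 h and 51.5% at 72 h.

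T cell-like and B cell-like cells serve as a guide to free RNA, though their CPM is not matched for depth. At 24 h they had a median of 2151 UMIs, against 6828 in dendritic cell-like and 890 in neutrophil-like cells. In naïve mice the 6 members were at 0 to 4.04 CPM in T cell-like and B cell-like cells. At 24 h both classes together held Clec4d at 11.3 CPM (2.325 to 32.95), Clec4e at 22.55 (8.28 to 49.1), Clec4n at 33.8 (15.5 to 64.2) and Clec4a3 at 30.1 (12.98 to 59.2). The dendritic cell-like levels of Clec4d and Clec4e at 24 h, 28.2 and 25.8 CPM, overlapped these intervals, and those of Clec4n and Clec4a3 lay above them. By UMIs, Clec4d and Clec4e were at 23 and 21 in 120 dendritic cell-like cells, against 3 and 6 in these 105 T cell-like and B cell-like cells. The neutrophil-like Clec4a3 at 24 h (49.95 to 105.7) overlapped its interval too, with 30 UMIs in 411 cells against 8 in 105. The part of free RNA in these levels, and in the ratio of 0.213 to monocyte/Mφ-like cells, was not tested. At 72 h T cell-like and B cell-like cells together held Clec4d at 5.19 CPM (1.07 to 15.2) and Clec4e at 22.5 CPM (12.0 to 38.5). Dendritic cell-like Clec4d, at 23.3 CPM (15.45 to 33.6), lay just above that interval, and Clec4e, at 29.9 CPM (20.9 to 41.4), overlapped its own.

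Within monocyte/Mφ-like cells the members changed in different ways between libraries, but the cells themselves also changed. The naïve cells were mainly Cx3cr1+ Mφ-like (71 of 138) and Cd206+ Mφ-like (28). At 24 h the larger clusters were Fabp5+ (401), Ly6c+ monocyte-like (328), Arg1+ (280), an unnamed one led by Gm42418 (268) and Ccr2+ intermediate (203). At 72 h Cd206+ (257) and Timp2+ Mφ-like cells (131) prevailed. The Gm42418-led cells were shallow, with a median of 2179 UMIs. Another unnamed cluster (11 naïve cells, 21 at 24 h and 18 at 72 h) was led by the B cell genes Cd79a and Ebf1. Both unnamed clusters are part of the monocyte/Mφ-like levels. No cluster held at least 20 cells in both the naïve and the 24 h library. Shifts between these clusters and changes within them therefore cannot be told apart for that comparison. The median ratio of genes at 100 CPM or more was also off 1, at 1.19 for 24 h over naïve, 0.884 for 72 h over 24 h and 1.07 for 72 h over naïve, which is 0.25, −0.18 and 0.10 on the log2 scale.

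Clec4e was at 43.2 CPM in naïve monocyte/Mφ-like cells (26.7 to 66.0), 145 at 24 h (137 to 153) and 113 at 72 h (102 to 126). Both later libraries lay above the naïve one. The 24 h level was 3.36 times the naïve one (2.19 to 5.44), or 2.83 times relative to the median gene (1.84 to 4.58). Clec4e was the 1 of 5 members at least 2-fold higher at 24 h, against 9.93% of all 5571 genes. From 24 h to 72 h its ratio was 0.782 (0.693 to 0.880), or 0.885 relative to the median gene (0.784 to 0.996).

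Clec4n stood at 115 CPM in naïve monocyte/Mφ-like cells (87.0 to 150), 212 at 24 h (202 to 221) and 330.0 at 72 h (310 to 351). The 3 intervals were apart, in the order of time. The ratios were 1.84 for 24 h over naïve (1.41 to 2.44), 1.56 for 72 h over 24 h (1.44 to 1.68) and 2.87 for 72 h over naïve (2.19 to 3.82). Relative to the median gene they were 1.55, 1.77 and 2.67. Clec4n and Clec4e were the 2 of 5 members at least 2-fold higher at 72 h over naïve, against 3.73% of all 5499 genes. None was at least 2-fold lower, against 5.47%.

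Clec4d was at 65.8 CPM in naïve monocyte/Mφ-like cells (45.0 to 92.9), 115 at 24 h (108 to 122) and 90.05 at 72 h (79.8 to 101). The 72 h interval overlapped the naïve one, with a ratio of 1.37 (0.948 to 2.04) that ran from 1.26 to 3.70 over the alternative settings. At 24 h over naïve the ratio was 1.75 (1.23 to 2.57), or 1.47 relative to the median gene (1.04 to 2.17). The naïve value rests on 32 UMIs in 12 of 138 cells, of which 15 UMIs came from 12 Timp2+ and 12 from 28 Cd206+ Mφ-like cells. The 24 h ratio was 4.32 with each cell thinned to 500 UMIs, which left a Clec4d UMI in only 1.45% of the naïve cells.

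Clec4b1 went down and up again, from 43.2 CPM in naïve monocyte/Mφ-like cells (26.7 to 66.0) to 16.5 at 24 h (13.95 to 19.4) and 35.7 at 72 h (29.4 to 43.0). The 24 h library lay apart from both others, which overlapped. It was the 1 of 5 members at least 2-fold lower at 24 h, at 0.382 (0.241 to 0.635), against 11.1% of all genes. At 72 h over 24 h it was the 1 at least 2-fold higher, at 2.17 (1.68 to 2.79), against 4.04% of all 5224 genes, and none was at least 2-fold lower, against 3.75%. With each cell thinned to 500 UMIs, which leaves few UMIs of this gene, the last ratio was 0.630. Cd209a stayed under 20 CPM in all 3 libraries and was not counted. Clec4a3 changed least, with ratios of 1.31 (1.10 to 1.57), 0.809 (0.750 to 0.873) and 1.06 (0.879 to 1.28).

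**Figure D4:**
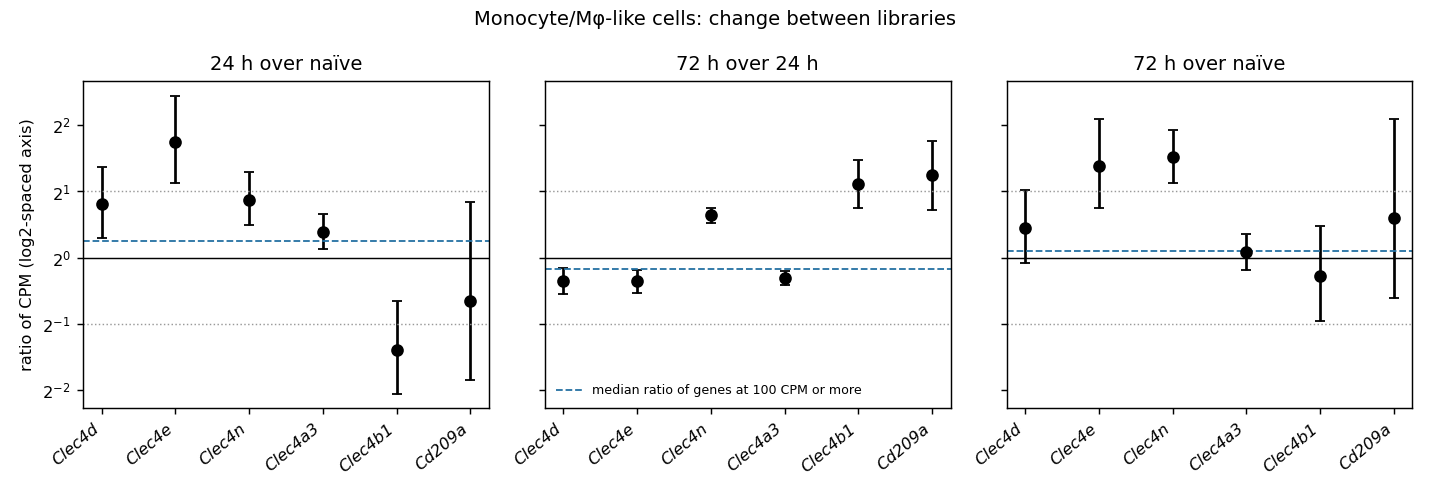
Ratio of CPM between libraries in monocyte/Mφ-like cells (y axis, log2-spaced) for the 6 genes, in 3 panels. Bars are 95% intervals from counting, dotted lines mark 2-fold and the dashed line the median ratio of genes at 100 CPM or more; Clec4e rises most at 24 h over naïve (3.36) and Clec4n at 72 h over naïve (2.87).

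Transcripts of neutrophils in the monocyte/Mφ-like cells moved with time as well. The 8 neutrophil markers summed to 154 CPM in naïve monocyte/Mφ-like cells (6 of 8 detected, Retnlg and Cxcr2 at 0), 1092 at 24 h and 884 at 72 h (8 of 8 in both). In T cell-like and B cell-like cells together they summed to 20.5, 383 and 479 CPM. Without the 191 monocyte/Mφ-like cells that held a Retnlg UMI, Clec4d was at 117 CPM at 24 h and 91.7 at 72 h, Clec4e at 143 and 114, and Clec4n at 209 and 339. Each lay within the counting interval of the level with those cells, a check chosen after the data had been seen. The cells left out were few, 152 of 1548 at 24 h and 39 of 578 at 72 h, so the levels could move little. Neutrophil RNA in cells without a Retnlg UMI is not covered by this check.

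Across the monocyte/Mφ-like clusters, Clec4d, Clec4e and Clec4n were highest in a small cluster of 38 cells at 24 h, Arg1+ and led by Mmp12, Cxcl3, AA467197 and Slc7a11. Clec4d was at 686 CPM there (573 to 816), Clec4e at 917 (785 to 1065) and Clec4n at 681 (568 to 810). Over the other monocyte/Mφ-like cells of that library these were 6.65-fold (5.49 to 8.01), 7.13-fold (6.04 to 8.38) and 3.38-fold (2.80 to 4.04). Clec4a3 was at 279 CPM, a ratio of 0.8004 (0.596 to 1.05). The neutrophil markers summed to 2070 CPM in these cells (7 of 8 detected, Mmp9 at 0), between 524 and 1713 CPM in the other clusters at 24 h and 75760 CPM in neutrophil-like cells. Without the 5 cells with a Retnlg UMI, Clec4d was at 708, Clec4e at 850 and Clec4n at 667 CPM.

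The larger Arg1+ cluster of 280 cells, led by Ltc4s, Klk8, Tppp3 and Rhoc, differed from it. At 24 h it held Clec4e at 230 CPM (206 to 256), 1.78 times the other monocyte/Mφ-like cells (1.57 to 2.02). Clec4n was low there, at 102 CPM (86.35 to 120), and Clec4d was at 138 CPM (120 to 159). Fabp5+ cells, whose leading genes were the immunoglobulin gene Igha, then Fabp5, Gpnmb and Ppbp, had the reverse order, with Clec4e at 75.7 CPM (66.0 to 86.3) and Clec4n at 234 CPM (217 to 252).

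Ly6c+ monocyte-like cells carried the most Clec4a3, at 499 CPM at 24 h (470 to 529) and 469 at 72 h (364 to 596). Over the other monocyte/Mφ-like cells these were 1.67-fold (1.55 to 1.80) and 1.73-fold (1.33 to 2.22). They held Clec4e at 177 and 196 CPM and Clec4n at 154 and 168 CPM. In the Ccr2+ intermediate cells Clec4n was at 309 CPM at 24 h (281 to 339) and 412 at 72 h (359 to 470). The 72 h level in these cells was 1.33 times that at 24 h (1.13 to 1.57), next to 1.09 in Ly6c+ monocyte-like cells, whose interval of 0.687 to 1.65 holds both 1 and 1.33.

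The resident and late clusters were far apart for the same genes. In the 71 naïve Cx3cr1+ Mφ-like cells no UMI of Clec4d or Clec4e was counted, where 3 UMIs would give 14.0 CPM. The other 67 naïve monocyte/Mφ-like cells held Clec4d at 117 and Clec4e at 77.0 CPM, so the naïve UMIs of both genes came from outside that cluster. Clec4n was at 23.4 CPM (7.60 to 54.6) in the naïve Cx3cr1+ cells, but Clec4a3 at 285 CPM (218 to 367) and Clec4b1 at 46.8 CPM (22.4 to 86.05). The 19 Cx3cr1+ cells at 72 h, too few to be compared, held Clec4n at 200 CPM (125 to 303), from 22 UMIs. They held 0 UMIs of Clec4d and 1 of Clec4e.

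In Cd206+ Mφ-like cells Clec4n was at 267 CPM in 28 naïve cells (176 to 389) and 412 in 257 cells at 72 h (379 to 448), a ratio of 1.54 (1.05 to 2.36). The 72 h level was also that of Ccr2+ intermediate cells at 72 h (412 CPM), and the Mmp12-led Arg1+ cells were higher at 24 h (681 CPM). Clec4d in Cd206+ Mφ-like cells was at 119 CPM (61.4 to 208) and 57.9 CPM (45.8 to 72.1), and the naïve value rests on 12 UMIs. Clec4e in these cells was at 39.6 CPM in naïve mice (10.8 to 101), from 4 UMIs, and 65.9 CPM at 72 h (53.0 to 81.0). These intervals overlapped. The part of shifts between clusters in the Clec4e ratio of all monocyte/Mφ-like cells was not tested. Timp2+ Mφ-like cells at 72 h had the opposite pattern, with Clec4d at 180 CPM (148 to 216), Clec4e at 148 (120 to 181) and Clec4n at 113 (88.7 to 143). Against the other monocyte/Mφ-like cells of that library Clec4d was 2.68-fold higher (2.09 to 3.42) and Clec4n at 0.294 (0.228 to 0.374). Clec4b1 was at 54.9 CPM in Cd206+ cells (43.2 to 68.8) and 6.30 CPM in Timp2+ cells (1.72 to 16.1), whose intervals were apart.

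**Figure D5:**
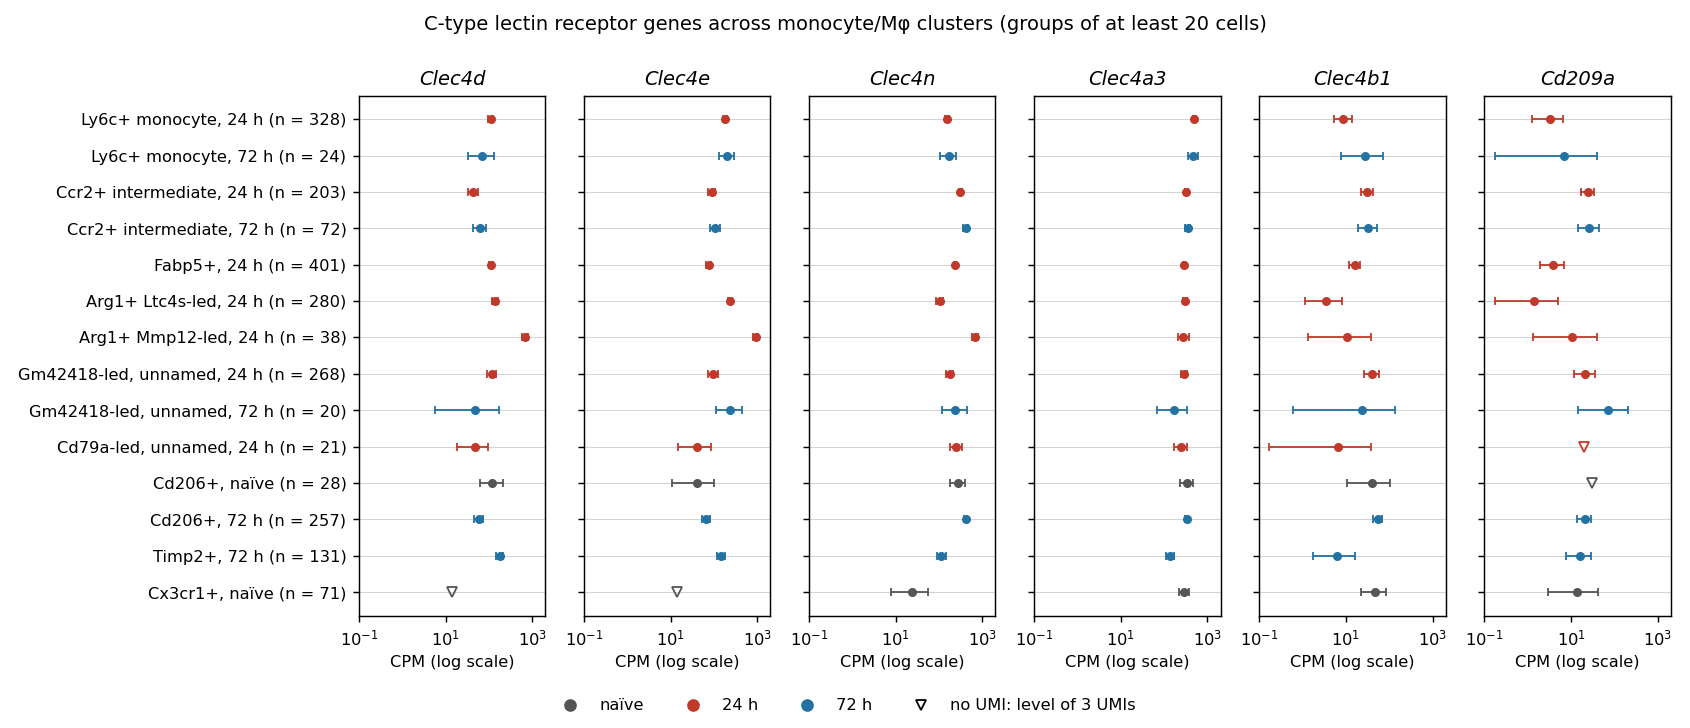
Level of each gene (x axis, CPM of summed UMIs on a log axis) in monocyte/Mφ-like clusters of at least 20 cells, by library, with 95% Poisson intervals and open triangles for groups with no UMI. The Mmp12-led Arg1+ cells hold most Clec4d, Clec4e and Clec4n (686, 917 and 681 CPM), and naïve Cx3cr1+ cells have no UMI of Clec4d or Clec4e.

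Fcer1g, Syk and Card9 encode the signalling partners. Fcer1g was at 3211 CPM in naïve monocyte/Mφ-like cells (3054 to 3375), 3810 at 24 h (3770 to 3851) and 3188 at 72 h (3125 to 3251). Syk was at 84.3 (60.5 to 114), 66.6 (61.4 to 72.2) and 98.4 CPM (87.7 to 110). Card9 was low, at 8.22 CPM in naïve cells, from 4 UMIs, 11.95 at 24 h and 12.9 at 72 h. At 24 h, neutrophil-like cells held Fcer1g at 6112 CPM and Syk at 153 CPM, 1.60-fold (1.54 to 1.67) and 2.30-fold (1.74 to 2.99) above monocyte/Mφ-like cells. Of 22 adaptor and signal genes tested, 6 were at least 2-fold higher in neutrophil-like cells, among them Tyrobp at 11050 CPM, and 0 at least 2-fold lower, against 18.2% and 37.4% of all genes. The list's median ratio was 1.307 beside 0.705 over all genes.

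Over time in monocyte/Mφ-like cells, 2 of 22 partners were at least 2-fold lower and 0 higher at 24 h over naïve, against 11.1% and 9.93% of all genes. These were Inpp5d (115 to 54.6 CPM), which encodes the phosphatase SHIP1, and Blnk (72.0 to 21.03 CPM), an adaptor downstream of Syk. The list's median ratio was 0.943 beside 1.05 over all genes. In the same cells the 6 B cell markers summed to 298 CPM in naïve mice, 32.5 at 24 h and 78.5 at 72 h. The part of B cell RNA in the Inpp5d and Blnk values was not tested. None of the 22 passed in either direction at 72 h over 24 h (median ratio 1.006, beside 0.9405 over all genes), and 1, Vav3, was higher at 72 h over naïve (0.983 beside 1.004). Of all genes, 4.04% were higher and 3.75% lower at 72 h over 24 h, and 3.73% and 5.47% at 72 h over naïve.

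Of the other C-type lectins of leukocytes, 12 of 27 measured reached 20 CPM at 24 h or in naïve cells. At 24 h over naïve 1 was at least 2-fold higher and 1 lower, against 9.93% and 11.1% of all genes. The lower one was the galactose lectin Mgl2, from 294 to 15.4 CPM. The median ratio was 0.748, beside 1.05 over all genes. Between 24 h and 72 h, 1 of 13 was lower and 3 were higher, Mgl2 back at 152 CPM, the mannose receptor Mrc1 (143 to 318 CPM) and Olr1. Of all genes 3.75% were lower and 4.04% higher, and the list's median ratio was 1.325 beside 0.9405. Olr1 alone passed at 72 h over naïve, higher at 20.9 against 2.06 CPM, the latter 1 UMI. Of all genes 3.73% were higher and 5.47% lower, and the list's median ratio was 1.11 beside 1.004.

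Among 9 of 16 measured cytokine and response genes at 20 CPM or more in monocyte/Mφ-like cells, the chemokine gene Ccl2 was higher at 24 h (224 to 1223 CPM), and Ccl3 was lower (600 to 249 CPM), with a median ratio of 1.25. From 24 h to 72 h Ccl2 was the 1 that was lower, at 353 CPM (median ratio 1.13). Il1b (339 to 728 CPM) and Ptgs2 were higher at 72 h over naïve, and Ccl3 and Ccl4 (617 to 295 CPM) lower (median ratio 1.56). In the same order of comparisons, 9.93%, 4.04% and 3.73% of all genes were higher and 11.1%, 3.75% and 5.47% lower. The median ratios over all genes were 1.05, 0.9405 and 1.004. In neutrophil-like cells at 24 h, 11 of 12 exceeded monocyte/Mφ-like cells at least 2-fold, among them Il1b at 11370 and Cxcl2 at 18320 CPM, against 18.2% of all genes. The list's median ratio was 19.16 beside 0.705 over all genes. Ccl2 was the exception, at 180 CPM against 1223 CPM.

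Between classes the other lectins went both ways. In neutrophil-like over monocyte/Mφ-like cells at 24 h, 4 of 12 were higher and 6 lower, against 18.2% and 37.4% of all genes. Among them were Clec5a (220 against 28.7 CPM), another activating receptor, and Clec4a1 (39.5 against 243 CPM), a neighbour of Clec4a3. In dendritic cell-like over monocyte/Mφ-like cells at 72 h, 5 of 16 were higher, with Mgl2 at 464 against 152 CPM, and 8 lower, with Clec4a2 at 142 against 319 CPM. Of all genes 9.74% were higher and 9.77% lower. For the Siglecf Ptgs2 cluster over neutrophil-like cells at 72 h, 4 of 11 were higher, with Clec5a at 318 against 159 CPM, and 1 was lower. These compare with 37.3% and 12.9% of all genes. The medians of these lists, 0.681, 0.5801 and 1.097, stood beside 0.705, 1.077 and 1.49 over all genes.

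Profiles over 16 groups of class and library placed the members in 3 sets. Pearson's r of log2(CPM + 10) was 0.95 between Clec4d and Clec4e, 0.90 between Clec4d and Clec4n, 0.92 between Clec4e and Clec4n, and 0.86 between Clec4b1 and Cd209a. Clec4a3 reached at most 0.55 with any other member. Among 5509 genes the profile most like that of Clec4d was Hp (0.96), followed by Sirpb1b and Tlr13. For Clec4e they were Cxcl2 (0.98), Il1rn and Tarm1, for Clec4n Il1b (0.98), Ier3 and Dazap2, and for Clec4a3 Clec4a1 (0.96), Lyz2 and Dhrs3. Atpif1 (0.95), Dapk1 and Fgfr1 came first for Clec4b1, and Ppp1r14a (0.98), Ddr1 and Tnip3 for Cd209a. Groups of 1 library share its depth and free RNA, so these values are descriptions.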

How the data were processed

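Single-cell RNA sequencing (10x Genomics 3′ kit) was performed by the authors on CD45+ cells. Per the labels, reads were aligned to GRCm38/mm10 and UMIs counted with Cell Ranger 3.0.2, and cells with fewer than 200 genes or over 10% mitochondrial UMIs were removed before further work in Seurat. The deposited values are these raw UMI counts per gene and cell; 0 columns were left unused. The members, gene lists, markers and comparisons were chosen with earlier results of these data known.

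Here, 4102 cells were log-normalized and clustered with Seurat 5.3.0 in R 4.3.3 (2000 variable genes, 30 principal components, resolution 0.8, random seed 0). Monocyte/Mφ-like cells were clustered again with 20 components. The 80 listed genes were left out of the variable genes. A cluster was named where at least 3 markers were detected in 10% of its cells and were 2-fold higher (pseudocount 10 CPM) than the lower quartile of clusters, or, for Mφ clusters, than the other monocyte/Mφ-like cells. It stayed unnamed where a gene of another lineage's marker list was among its 5 leading genes (Igha was in no list). This rule was written after the clusters had been seen. Where several lists passed, the highest mean log2 ratio gave the name, but the dividing cell list was set aside whenever another passed. The main dendritic cell-like cluster passed 6 of 6 dividing cell markers (mean 3.28), 9 of 12 dendritic cell markers (2.77) and 11 of 14 monocyte/Mφ markers (1.57). Doublets were kept; Scrublet (scanpy 1.11.5) called 3, 5 and 8 cells.

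UMIs were summed per group and given as CPM. Intervals at 95% are exact Poisson for levels, Clopper-Pearson for shares and exact conditional Poisson for ratios (numpy 2.4.6, scipy 1.17.1, pandas 2.3.3). They were tested on simulated data and cover counting error only. With 1 library per time point no test was run. For groups under 20 cells no ratio over time was computed, and their levels are given as values. Ratios past 2-fold were counted among genes at 20 CPM or more in either group. The genes named are all members with values, Fcer1g, Syk and Card9, and from each other list at most 6 genes past 2-fold with at least 50 CPM; those named below 50 CPM complete a count and were chosen after their values were seen, as were the listed genes named between classes. Likeness names the 3 genes with the highest correlation among genes at 50 CPM or more in a group. One gene of the list of other lectins is not reported here by name or value. Figures were drawn with matplotlib 3.10.9.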

Additional observations from a re-analysis of the deposited data

Results flagged for a closer look

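Clec4n moved in opposite directions between 24 h and 72 h in different cell classes, which was not tested since each time point is 1 library. The ratio of 72 h over 24 h was 1.56 in monocyte/Mφ-like cells (1.44 to 1.68) and 0.811 in neutrophil-like cells (0.696 to 0.944). In the Siglecf Ptgs2 cluster it was 1.62 (1.09 to 2.51), against the same 0.811 in neutrophil-like cells. Within the Retnlg-led neutrophil-like cells Clec4n was at 1881 CPM at 24 h and 1180 CPM at 72 h. The Acod1-led cells held 1918 CPM at 24 h (48 cells) and 3005 CPM at 72 h, where 17 cells are too few to be compared. The 24 h value of the Siglecf Ptgs2 cluster rests on 26 UMIs of 27 cells.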

How the results depend on the processing

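No paired analysis was possible because each group is 1 library. Over the alternative clusterings, cell filters, doublet removals, thinning and scalings, 393 of 450 ratios of members stayed within the counting interval of the reported value, 56 moved outside it and 1 reversed, Clec4b1 for 72 h over 24 h in monocyte/Mφ-like cells, which was 0.630 with cells thinned to 500 UMIs against 2.17. The ratios were those over time in monocyte/Mφ-like cells, and of neutrophil-like cells at 24 h and dendritic cell-like cells at 72 h over monocyte/Mφ-like cells. Ratios of monocyte/Mφ-like clusters, of the neutrophil-like clusters and of the Siglecf Ptgs2 cluster were not among them. Of 1326 levels, 209 moved outside the interval. The cause was not tested. Of the members at least 2-fold higher at 24 h over naïve, 1 became 2 with the mean of CPM per cell and with cells thinned to 500 UMIs, and 3 with cells thinned to 1500 UMIs and with a fold of 1.5. The 1 lower became 0 with a fold of 3 and with a minimum of 100 CPM. At 72 h over 24 h the 1 higher became 2 with the strict cell filter (500 genes, 5% mitochondrial UMIs), fewer principal components, 3000 variable genes, a fold of 1.5, no minimum and, added after the data were seen, without monocyte/Mφ-like cells with a Retnlg UMI. It became 0 with the mean per cell, both thinnings, a fold of 3 and a minimum of 100 CPM. At 72 h over naïve the 2 higher became 0 with a fold of 3, and the 0 lower became 1 with the mean per cell and with cells thinned to 500 UMIs. Leaving out the unnamed monocyte/Mφ-like clusters, also added after the data were seen, changed none of these counts by over 1.5 times. The numbers of all genes past the fold moved as well, in 35 of 114 cases, next to 20 of 114 for the members. Except for thinning to 500 UMIs, these member counts are given without the share of all genes and are not read against it. With cells thinned to 500 UMIs, the shares of all genes past 2-fold were 20.8% higher and 23.0% lower at 24 h over naïve, 11.7% and 9.65% at 72 h over 24 h, and 19.6% and 21.3% at 72 h over naïve. Over all alternatives the ratio of 24 h over naïve ran from 2.83 to 5.89 for Clec4e, from 1.48 to 4.32 for Clec4d and from 0.252 to 0.403 for Clec4b1. Thinned to 500 UMIs, 1.45% of naïve monocyte/Mφ-like cells held a UMI of Clec4d and 1.45% one of Clec4e, so ratios over naïve at that depth rest on few UMIs. The 72 h over naïve ratio of Clec4e ran from 2.35 to 5.43, and that of Clec4b1 from 0.191 to 1.08. Clec4n in neutrophil-like over monocyte/Mφ-like cells at 24 h ran from 5.54 to 9.04. Depth limits Cd209a and Clec4b1 in monocyte/Mφ-like cells and all naïve values, where 138 monocyte/Mφ-like and 12 neutrophil-like cells were counted.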
